A study of Mus musculus with 48 samples.

Results

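Cd74, the invariant chain that escorts MHC class II molecules through the secretory pathway, varied widely between clonal cultures of mouse monocytes, and the clones at its extremes are described here. Monocyte libraries of 22 clones were ranked by their Cd74 level, separately in the 12 ranked clones numbered 1 to 13 and the 10 ranked clones numbered 15 to 26. The 4 highest of each set make the Cd74-high class (n = 8) and the 4 lowest make the Cd74-low class (n = 8), so that 16 of the 24 monocyte libraries of the study were compared. The members were thus selected on their Cd74 TPM. The classes were made from a measured value and not from a treatment or genotype. The tests below therefore show which genes went with Cd74 from clone to clone.

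The study sequenced RNA of 24 clones in 2 states, 48 libraries in all. Every culture is an ER-Hoxb8 line from mouse bone marrow, in which the homeobox factor Hoxb8 is fused to the hormone-binding part of the estrogen receptor and holds myeloid progenitors in a dividing state while hormone is present. Cd74-high monocytes are those of clones 5, 1, 13, 11, 15, 18, 23 and 24, Cd74-low monocytes are those of clones 2, 4, 3, 9, 17, 21, 20 and 22, and the progenitors of the same clones, labelled as granulocyte-monocyte progenitors, are the third group. Each clone gave 1 library per state, so a replicate here is a clone, and the spread within a class holds the differences between clones. All groups carry the same transgene, and the culture medium named in the labels contained stem cell factor. The sources used here give neither the mouse strain nor the time allowed for maturation.

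MHC class II molecules present peptides from engulfed material to helper T cells. They are assembled with the invariant chain, which blocks their peptide groove until lysosomal proteases (cathepsins and legumain) trim it to a short remnant. The peptide exchanger H2-DM then removes that remnant. Cd74 at the cell surface is also a receptor for the cytokine MIF. Class II genes and Cd74 share promoter elements read by the RFX and NF-Y complexes together with the coactivator Ciita, while many lysosomal genes carry an E-box read by the factors Tfeb and Mitf.

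The promoters of a pair of class II genes and a pair of lysosomal protease genes are shown because the first pair was close to silent in both classes and the second pair followed Cd74. They were chosen, after the values were seen, from the promoters that hold the motif in question. Each is a RefSeq window of 250 bases before to 50 bases after an annotated start of the gene, build GRCm38.p6, written in the direction of transcription. H2-Aa lies at chr17:34287774-34288073 on the minus strand and H2-Eb1 at chr17:34305617-34305916 on the plus strand. In both, capitals mark CTGATTGG, the Y box to which NF-Y binds. Ctsd lies at chr7:142387778-142388077 and Lgmn at chr12:102439043-102439342, both on the minus strand. In the GENCODE M21 annotation the Lgmn gene begins upstream of its window, at 102439813. That window is therefore not at the outermost start of Lgmn. In the Ctsd and Lgmn windows, capitals mark CACGTG, the E-box core.
H2-Aa: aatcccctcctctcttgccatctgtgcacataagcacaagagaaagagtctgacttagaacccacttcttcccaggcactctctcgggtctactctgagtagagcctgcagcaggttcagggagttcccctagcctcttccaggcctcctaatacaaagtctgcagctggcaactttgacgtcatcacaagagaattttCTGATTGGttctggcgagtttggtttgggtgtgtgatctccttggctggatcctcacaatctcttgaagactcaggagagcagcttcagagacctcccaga
H2-Eb1: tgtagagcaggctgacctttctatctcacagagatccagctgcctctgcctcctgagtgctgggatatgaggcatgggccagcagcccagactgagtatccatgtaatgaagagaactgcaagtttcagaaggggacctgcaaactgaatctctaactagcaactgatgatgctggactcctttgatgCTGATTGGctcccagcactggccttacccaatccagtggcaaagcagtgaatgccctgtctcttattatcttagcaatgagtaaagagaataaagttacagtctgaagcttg
Ctsd: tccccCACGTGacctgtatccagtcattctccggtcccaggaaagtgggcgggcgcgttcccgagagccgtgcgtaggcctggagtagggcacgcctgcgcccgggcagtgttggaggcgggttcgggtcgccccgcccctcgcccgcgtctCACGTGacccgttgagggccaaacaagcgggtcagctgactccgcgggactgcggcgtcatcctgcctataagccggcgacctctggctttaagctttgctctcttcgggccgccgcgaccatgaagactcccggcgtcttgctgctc
Lgmn: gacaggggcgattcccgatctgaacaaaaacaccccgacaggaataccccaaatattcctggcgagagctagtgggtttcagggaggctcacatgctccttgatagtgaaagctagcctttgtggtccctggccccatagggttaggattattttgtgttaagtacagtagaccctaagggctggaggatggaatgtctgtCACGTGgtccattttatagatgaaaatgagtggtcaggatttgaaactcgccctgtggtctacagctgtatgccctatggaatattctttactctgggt

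Searched on both strands, CTGATTGG stood in 4.1% of 32851 RefSeq promoters of this length and CACGTG in 7.15%. The Y box was in the promoters of 4 of 8 matched class II genes, namely H2-Aa, H2-Eb1, H2-Eb2 and H2-Oa. The E-box core was in those of 4 of 7 matched protease genes, namely Ctsd, Ctsl, Lgmn and Ifi30, the last of which was not in the expression table. Among matched lysosome genes it was in the promoters of 3 of 11, and among matched macrophage genes in those of 0 of 11. Over the genes that followed Cd74 upward in the comparison below, the E-box core stood in 9.25% of 865 promoters, near the 10.4% of 10028 promoters of all tested genes. A match says only that these letters are in the window.

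In monocytes of clones 1 to 13, Cd74 stood at 175 TPM in clone 5, 81.7 in clone 1, 80.7 in clone 13 and 61.0 in clone 11. The Cd74-low clones of that set had 5.14 TPM in clone 2, 3.28 in clone 4, 2.52 in clone 3 and 0.686 in clone 9. TPM are abundances corrected for transcript length and scaled to the library total. Among clones 15 to 26, Cd74 reached 70.5 TPM in clone 15, 29.4 in clone 18, 17.4 in clone 23 and 16.9 in clone 24. Their Cd74-low clones had 3.99 TPM in clone 17, 3.19 in clone 21, 1.36 in clone 20 and 1.12 in clone 22. Over both sets the mean was 66.6 ± 51.5 TPM in Cd74-high monocytes and 2.66 ± 1.54 TPM in Cd74-low monocytes (SD, n = 8 each). These values chose the classes and carry no test. The nearest clones that entered neither class were clone 6 with 21.8 and clone 12 with 10.5 TPM in the first set, and clone 16 with 6.63 and clone 19 with 6.23 TPM in the second. The weakest high clone of the second set therefore lay below clone 6, a middle clone of the first. Clones 8 and 26, whose monocytes had 51.3 and 165 TPM, were left out by the rule.

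**Figure D1:**
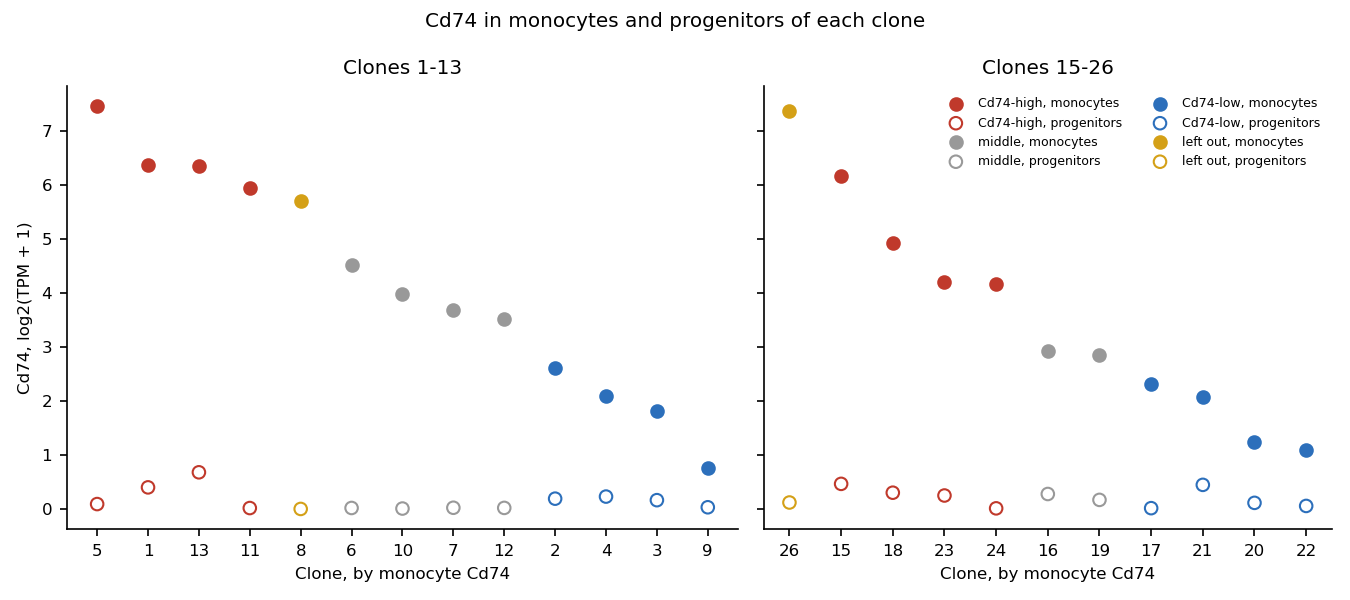
Cd74 as log2(TPM + 1) in monocytes (filled) and progenitors (open) of each clone, ordered by the monocyte level within each set; red is Cd74-high, grey middle, blue Cd74-low and gold left out. Monocyte levels span 175 to 0.686 TPM in the first set, while every progenitor of the 16 clones stays at or below 0.601 TPM.

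The progenitors that gave rise to these monocytes did not differ detectably in Cd74. Progenitors of the Cd74-high clones had 0.00769 TPM at the lowest, 0.210 at the median and 0.601 at the highest, against 0.0101, 0.1003 and 0.362 TPM in progenitors of the Cd74-low clones. The classes overlapped almost wholly. The difference was 0.12 on the log2(TPM + 1) scale (exact two-sided permutation test within sets, p = 0.249, n = 8 each, 4900 arrangements of the classes). At levels this close to 0 a clonal difference could be missed.

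A few facts of the libraries touch what follows. Transcripts of mitochondrial genes took 4.48 to 15.9% of TPM in Cd74-high monocytes (median 5.99%) and 1.98 to 10.7% in Cd74-low monocytes (median 3.60%), a difference short of significance (exact permutation test, p = 0.0967, adjusted over 2 measures 0.0967). Genes at 1 TPM or more numbered 10060 to 10717 in Cd74-high and 9436 to 10539 in Cd74-low monocytes (exact permutation test, p = 0.0910, adjusted 0.0967). Several libraries stood apart. The Cd74-low clones 20 and 21 carried the most lactoferrin (Ltf, a neutrophil granule protein), at 36121 and 48973 TPM. The Cd74-low clones 17 and 22 had almost none, at 32.9 and 1.15 TPM, and clone 22 had the most myeloperoxidase (Mpo). The Cd74-high clone 15 had the interferon factor Irf7 at 1948 TPM, against at most 118 TPM in any other library of the 2 classes. Some of the results below are given without these libraries too, but not all. The counts for class I, interferon-gamma and Toll-like, lectin and Fc receptor genes are given only with clone 15 included.

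Across all other genes, 1104 of 10799 tested passed an adjusted p of 0.05 between Cd74-high and Cd74-low monocytes (limma with set as covariate, Benjamini-Hochberg), which is 10.2% of genes. Of these, 888 were higher in the Cd74-high class (8.22%) and 216 were lower (2.0%), and 568 of the higher and 82 of the lower genes differed by at least 2-fold. Of the genes tested, 341 reached a mean of 1 TPM in the Cd74-high class only, and 114 of these were called higher. Another 204 reached it in the Cd74-low class only, and 11 of these were called lower. Both counts, and the shares drawn from them, thus hold genes admitted only by the class where they are high. Of the 888 higher genes, 774 had a mean of at least 1 TPM in the Cd74-low class. With the median gene set equal in every library the split was 928 higher and 558 lower. The highest-ranked gene was Gas6, the ligand of the receptors that clear dying cells. It had 6.78 to 39.7 TPM in Cd74-high monocytes (median 15.98) and 0.247 to 5.80 TPM in Cd74-low monocytes (median 1.72), with no overlap (log2 difference 2.57 ± 0.23 SE, adjusted p = 7.42e-05). It was singled out after its value was seen, as the gene with the smallest p. The count fell to 707 without clone 5, the clone with the most Cd74. It rose to 1700 of 10806 genes without clones 20 and 21, with 1007 higher and 693 lower. Without clones 17 and 22 it was 2505 of 10739 genes, with 2065 higher and 440 lower. The list counts given below for these 2 settings are to be set against these numbers and not against 8.22% and 2.0%.

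**Figure D2:**
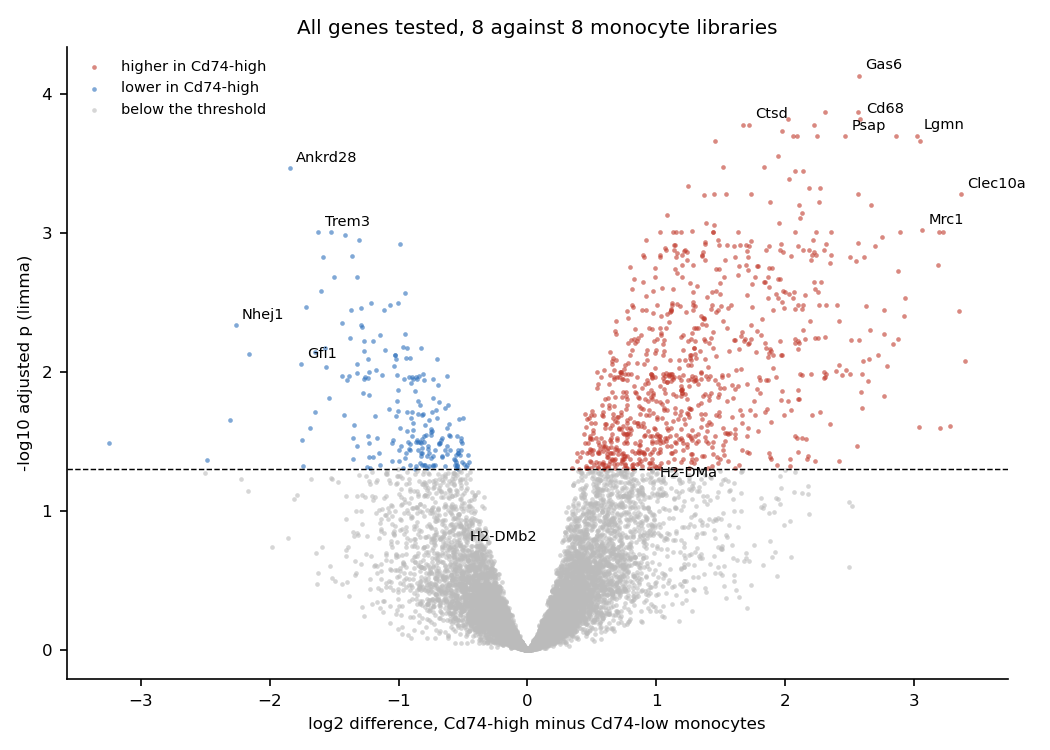
Each tested gene by its log2 difference between Cd74-high and Cd74-low monocytes (x) and the -log10 of its adjusted p (y), 8 libraries a class; the dashed line is the threshold of 0.05. The 888 higher genes (red) reach further from 0 and outnumber the 216 lower genes (blue), and H2-DMa lies just below the line.

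The class II chains were close to silent in both classes. Of 9 class II genes with an entry, 4 reached a mean of 1 TPM (called measured here), and 0 of 4 passed the test in either direction, against 10.2% of all genes. Over all lists 277 genes were measured, and 19 of them reached that mean through the Cd74-high class only. Such genes had to differ, and 5 of the 19 were called higher, so the list counts below describe and do not support. The median log2 difference of the class II genes was 0.39, where that of all genes was 0.08. H2-Aa, the alpha chain of the I-A molecule, had 7.57 TPM in clone 15 and 2.47 in clone 18, with the other Cd74-high clones between 0 and 0.833 TPM. Of the Cd74-low clones, clone 21 had 0.185 TPM and the others were listed at 0. Its partner H2-Ab1 had 0.0725 to 3.22 TPM in Cd74-high monocytes (median 0.660) and 0 to 3.15 TPM in Cd74-low monocytes (median 0.690), ranges that nearly coincide. H2-Eb1, the beta chain of the I-E molecule, reached at most 2.48 TPM in Cd74-high and 0.0569 TPM in Cd74-low monocytes. Ciita, the master coactivator of class II genes, stayed at or below 0.172 TPM in Cd74-high and at or below 0.0118 TPM in Cd74-low monocytes. Thus 175 TPM of invariant chain in clone 5 stood beside 0.833 TPM of H2-Aa. The chains H2-Aa, H2-Ab1 and H2-Eb1 were below the level at which genes were tested, so a bias toward antigen presentation was not measured in them.

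H2-DMa, a subunit of the peptide exchanger, came nearest to the threshold. It had 17.6 to 44.2 TPM in Cd74-high monocytes (median 24.3) and 4.18 to 30.1 TPM in Cd74-low monocytes (median 13.5), and the classes overlapped (log2 difference 0.97 ± 0.32 SE, limma adjusted p = 0.0633). It passed as higher without clone 4 (adjusted p = 0.0420), without clone 17 (0.0141) and without clones 17 and 22 (0.0148). H2-Oa, a modulator of that exchanger, differed by 0.46 ± 0.20 and H2-DMb1, the other subunit, by 0.32 ± 0.23, while its copy H2-DMb2 differed by -0.50 ± 0.22 (limma, adjusted p = 0.152, 0.412 and 0.182). H2-DMb2 passed as lower without clone 22 (limma, adjusted p = 0.0489) and without clones 17 and 22 (0.0167). The near-identical DMb copies share reads and are uncertain. Among the transcription factors of class II genes, 7 were measured, none was higher, and Nfyb alone passed as lower (2.0% of all genes). Nfyb, the B subunit of NF-Y, had 2.34 to 11.4 TPM in Cd74-high and 6.54 to 13.1 TPM in Cd74-low monocytes (log2 difference -0.67 ± 0.20, limma adjusted p = 0.0406). That call was lost on leaving out any of 12 clones singly, with an adjusted p of up to 0.0920 without clone 5. The RFX subunits Rfx5, Rfxap and Rfxank differed by -0.04, -0.04 and -0.23, within their errors.

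Most genes on the list of invariant chain processing and antigen proteases were higher. Of 8 measured, 6 were higher and 0 lower, against 8.22% of all genes that were higher, with a median log2 difference of 2.03. Legumain (Lgmn), an asparaginyl endopeptidase of the lysosome, had 251, 125, 225, 292, 250, 97.5, 111 and 55.9 TPM in Cd74-high clones 5, 1, 13, 11, 15, 18, 23 and 24. The Cd74-low clones 2, 4, 3, 9, 17, 21, 20 and 22 had 47.4, 38.7, 31.3, 7.03, 14.1, 10.97, 16.9 and 9.78 TPM. Every high clone lay above every low clone, and the log2 difference was 3.02 ± 0.36 (limma, adjusted p = 2.003e-04). Cathepsin S (Ctss), which makes the last cuts of the invariant chain in many presenting cells, had 497 to 2894 TPM in Cd74-high monocytes (median 984) and 33.7 to 300 TPM in Cd74-low monocytes (median 173), again without overlap (2.70 ± 0.43, limma adjusted p = 0.00125).

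Cathepsin L (Ctsl), its counterpart in other cell types, had 109 to 249 TPM in Cd74-high and 14.1 to 63.5 TPM in Cd74-low monocytes (log2 difference 2.08 ± 0.27, limma adjusted p = 3.58e-04). Cathepsin B (Ctsb) had 1685 to 3675 TPM in the Cd74-high class and 162 to 824 TPM in the Cd74-low class, a difference of 2.27 ± 0.30. Cathepsin D (Ctsd), an aspartic protease with E-boxes in the window shown above, had 1574 to 2951 TPM in Cd74-high and 294 to 794 TPM in Cd74-low monocytes, a difference of 1.72 ± 0.19. In these genes also the classes were fully separate, as they were in 226 of all genes tested (2.09%). Cathepsin Z (Ctsz) passed with overlapping classes (1.98 ± 0.32), whereas cathepsin H (Ctsh, 0.43 ± 0.68) and Sppl2a, the membrane protease that clears the last Cd74 fragment (1.07 ± 0.39), did not pass. The count of 6 was the same on leaving out any single clone and without clones 20 and 21, and it was 7 without clones 17 and 22.

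**Figure D3:**
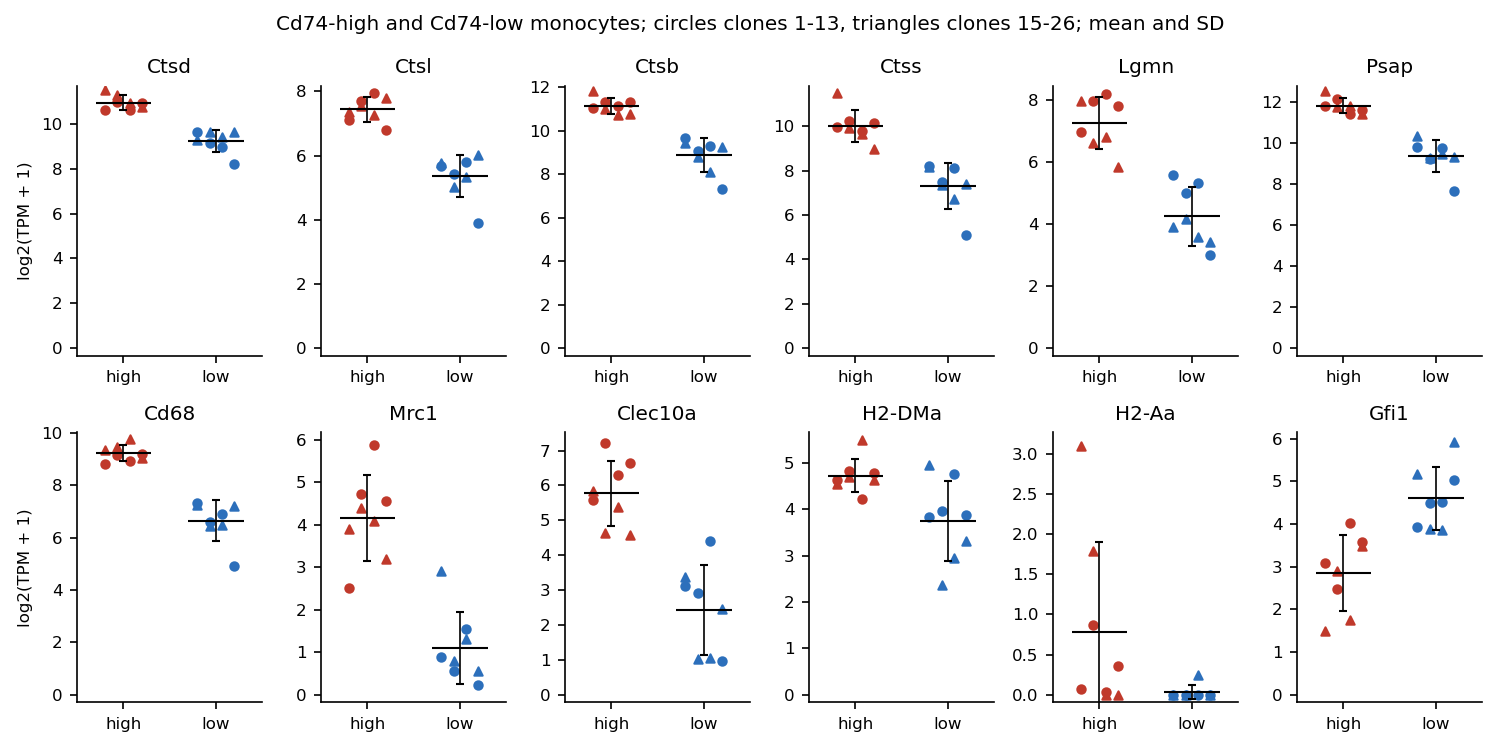
Levels as log2(TPM + 1) of 12 genes in the 8 Cd74-high (left) and 8 Cd74-low (right) monocyte libraries, circles for clones 1 to 13 and triangles for clones 15 to 26, with the mean and SD. Lysosomal proteases, Psap and Cd68 show no overlap between the classes, H2-DMa overlaps, and H2-Aa is at or near 0 in most libraries.

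The wider lysosome moved in the same direction. Of 15 measured lysosome genes 12 were higher and 0 lower (8.22% and 2.0% of all genes), with a median of 1.16. Prosaposin (Psap), the precursor of the saposins that activate sphingolipid breakdown, had 2714 to 5841 TPM in Cd74-high monocytes (median 3478) and 198 to 1284 TPM in Cd74-low monocytes (median 671). The classes did not overlap, and the log2 difference was 2.46 ± 0.29 (limma, adjusted p = 2.01e-04). Atp6v0d2, a subunit of the proton pump that acidifies the lysosome, had 22.7 to 115 TPM in Cd74-high and 1.08 to 17.1 TPM in Cd74-low monocytes (2.55 ± 0.43). Progranulin (Grn) differed by 1.37 ± 0.19, the membrane protein Lamp1 by 1.38 ± 0.21, the cholesterol carrier Npc1 by 1.42 ± 0.29 and the glycogen-degrading Gaa by 1.79 ± 0.48, all past the threshold. Lamp2 (0.58 ± 0.24) and the lysosomal master factor Tfeb (0.24) did not pass, while its relative Mitf did (1.17). The number higher was 10 to 12 on leaving out single clones, 12 without clones 20 and 21, and 12 without clones 17 and 22.

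Macrophage genes made the other large group. Of 15 measured, 12 were higher and 0 lower (8.22% and 2.0% of all genes), with a median of 2.13. The number was 11 of the 13 whose mean reached 1 TPM in both classes. One of them, Cd63, is also on the lysosome list. Cd68, a lysosomal glycoprotein used as a macrophage marker, had 450 to 878 TPM in Cd74-high monocytes (median 582) and 29.2 to 160 TPM in Cd74-low monocytes (median 108), with no overlap (log2 difference 2.58 ± 0.28, limma adjusted p = 1.51e-04). Trem2, a lipid receptor, had 210 to 365 TPM in Cd74-high and 13.5 to 108 TPM in Cd74-low monocytes (2.35 ± 0.35). Mrc1, the mannose receptor, had 4.66 to 58.4 TPM in the Cd74-high class and 0.176 to 6.48 TPM in the Cd74-low class (3.06 ± 0.45), where the Cd74-low clone 17 exceeded the Cd74-high clone 1. The complement chain C1qb differed by 2.59 ± 0.62 and the F4/80 gene Adgre1 by 1.88 ± 0.33. Apoe (1.5 ± 0.49), Spp1 (1.45 ± 0.59) and Mertk (1.04) did not pass. Without clones 20 and 21 the number higher was 11, and without clones 17 and 22 it was 14. In bulk libraries, more cells of one type and more RNA per cell cannot be told apart.

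Of 14 measured classical monocyte genes 3 were higher and 0 lower (8.22% and 2.0% of all genes), with a median of 1.11. Csf1r, the receptor for the monocyte growth factor M-CSF, had 70.1 to 258 TPM in Cd74-high monocytes (median 116) and 3.97 to 87.6 TPM in Cd74-low monocytes (median 29.0), a log2 difference of 2.25 ± 0.46 (limma, adjusted p = 0.00572). The fibronectin gene Fn1 (1.89 ± 0.40) and the lipopolysaccharide co-receptor Cd14 (1.65 ± 0.42) also passed. The surface marker Ly6c2, by contrast, had 529 to 1904 TPM in Cd74-high and 443 to 3746 TPM in Cd74-low monocytes, with a difference of -0.58 ± 0.42 that did not pass. Without clone 17 the number higher was 5 (1125 of all 10773 genes), and without clones 17 and 22 it was 6 (2065 of 10739). Lyz2 (0.88 ± 0.35), the chemokine receptor Ccr2 (1.66 ± 0.52) and Ms4a4c (2.04 ± 0.98) fell short of the threshold. Of 8 non-classical monocyte genes 2 were higher (8.22% of all genes), Fabp4 (1.44 ± 0.29) and Pou2f2 (1.12 ± 0.25), the second of which reached the filter through the Cd74-high class only.

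Of 16 dendritic cell genes with an entry, 4 were measured, and 3 were higher (8.22% of all genes). Clec10a, a galactose-binding lectin, had 22.99 to 147 TPM in Cd74-high monocytes (median 51.6) and 0.967 to 20.4 TPM in Cd74-low monocytes (median 5.51), without overlap (log2 difference 3.36 ± 0.46, limma adjusted p = 5.28e-04). The related lectin gene Mgl2 (3.04 ± 0.81) lost its call without clone 3, 5 or 9, with adjusted p-values of up to 0.0576. Slamf7, an adhesion receptor found on several immune cells, was the third (2.44 ± 0.55). Defining dendritic genes were at or near 0: Cd209a and Ccr7 were listed at 0 in all 16 libraries, and Zbtb46 did not exceed 0.0154 TPM in Cd74-high or 0.0384 TPM in Cd74-low monocytes. The T cell gene Cd3e was listed at 0 in all 16 libraries. Among costimulatory genes, 1 of 8 passed (2 without clone 15, with Cd274 added), where 8.22% of all genes were higher. It reached the filter through the Cd74-high class only, so the pass is no support: Cd83, an activation marker of presenting cells, had 1.60 to 11.8 TPM in Cd74-high and 0.0251 to 1.53 TPM in Cd74-low monocytes (1.65 ± 0.26). Cd40 (0.73 ± 0.42), Cd80 (0.28 ± 0.18) and Cd86 (0.53 ± 0.27) did not pass.

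Of 13 measured genes of the class I pathway 3 were higher and 0 lower (8.22% and 2.0% of all genes), with a median of 0.65. H2-D1, a classical class I heavy chain, had 452 to 2558 TPM in Cd74-high and 246 to 495 TPM in Cd74-low monocytes (log2 difference 1.17 ± 0.27, limma adjusted p = 0.0109). Its light chain B2m (1.13 ± 0.29) and the proteasome subunit Psmb10 (1.25 ± 0.31) were the others. The transporter genes Tap1 (0.29) and Tap2 (-0.42) did not pass. Class I heavy chains are near-identical copies whose reads may be split.

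Of 17 type I interferon genes 3 were higher and 0 lower (8.22% and 2.0% of all genes), and the list median was 1.88. The filter was reached through the Cd74-high class only in 3 of the 17. Rtp4 had 12.5 to 211 TPM in Cd74-high monocytes (median 20.6) and 0.256 to 11.2 TPM in Cd74-low monocytes (median 3.85), and Oasl2 differed by 2.77 ± 0.67. Summed over the list, clone 15 reached 7191 TPM and the median Cd74-high library 212 TPM, against a median of 76.5 and a highest sum of 249 TPM in Cd74-low libraries. Without clone 15 the list counted 4 higher of 15 measured (802 of all 10765 genes), with a median of 1.36. With the mitochondrial share as a covariate 11 of 17 were higher (1547 of all 10799 genes). In the interferon-gamma list, whose pathway induces Ciita, 1 of 13 was higher (Irgm1, 1.59 ± 0.41), near the 8.22% of all genes. Irf1 (0.02) did not pass.

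Of the genes for MIF and its receptors other than Cd74, 5 were measured and Cxcr4 alone passed, as lower (2.0% of all genes). This chemokine receptor, a partner of Cd74 in MIF signalling, had 27.1 to 142 TPM in Cd74-high monocytes (median 102) and 81.0 to 195 TPM in Cd74-low monocytes (median 165), and so ran against Cd74 (log2 difference -0.91 ± 0.23, limma adjusted p = 0.0215). Mif itself had 74.3 to 215 TPM in Cd74-high and 13.3 to 282 TPM in Cd74-low monocytes (0.92 ± 0.52), and the signalling partner Cd44 differed by 0.05 ± 0.25. Neither passed.

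Among 16 measured myeloid fate factors 4 were higher and 1 lower (8.22% and 2.0% of all genes). Maf, a macrophage factor, had 4.26 to 60.3 TPM in Cd74-high and 0.499 to 4.63 TPM in Cd74-low monocytes (log2 difference 2.18 ± 0.35, limma adjusted p = 0.00132). Irf5 (1.31 ± 0.30) and Cebpb (0.71 ± 0.18) were also higher. Gfi1, a repressor needed for neutrophil formation, had 1.79 to 15.1 TPM in Cd74-high monocytes (median 6.996) and 13.5 to 59.8 TPM in Cd74-low monocytes (median 21.7), a difference of -1.76 ± 0.39 (limma, adjusted p = 0.00873). The granulocyte factor Cebpe (-1.40 ± 0.54) and the monocyte factor Irf8 (1.56 ± 0.53) did not pass, nor did Spi1 (-0.09), which encodes PU.1. Of 7 receptors for colony-stimulating factors 3 were higher (8.22% of all genes), with Csf2rb2 and Il3ra beside Csf1r (1 without clone 1, 2, 3, 9, 13, 15 or 21), and the neutrophil receptor Csf3r differed by -0.69 without passing. Il3ra lost its call on leaving out any of 12 clones, with adjusted p-values of up to 0.0702.

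No neutrophil granule gene passed over all 16 libraries. This held for 18 secondary granule genes (median -0.70), where 2.0% of all genes were lower, so a count of 0 lies near the share of all genes. Their summed level was 3339 to 90004 TPM in Cd74-high monocytes (median 41247) and 1516 to 200209 TPM in Cd74-low monocytes (median 114093), so both classes held libraries rich and poor in granule transcripts. None of 8 primary granule genes passed (median -1.09), nor did any of 20 cell cycle genes (median -0.65), 14 ribosome biogenesis genes (0.36), 13 mitochondrial genes (0.79) or 7 stem and progenitor genes (-0.43). These counts moved with the libraries that stand apart. Without clones 20 and 21, 12 of 20 cell cycle genes and 5 of 8 primary granule genes were lower (693 of all 10806 genes). Without clones 17 and 22, 7 of 18 secondary granule genes were lower (440 of all 10739 genes). In that setting 11 of 13 mitochondrial genes were higher (2065 of all 10739 genes). With the secondary granule level as a further covariate, 6 of 8 proteases, 12 of 15 lysosome genes and 13 of 15 macrophage genes were higher. Of all 10799 genes 1215 were higher in that setting. With the mitochondrial share as a covariate these list counts were 8, 13 and 14, where 1547 of all 10799 genes were higher. With that covariate 19 of 20 cell cycle genes and 7 of 8 primary granule genes were lower, where 552 of all genes were. The transgene components Hoxb8 (-0.47 ± 0.34) and Esr1 (-0.37) did not pass.

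Of 17 Toll-like, lectin and Fc receptors 6 were higher and 0 lower (8.22% and 2.0% of all genes). Fcgr1, the high-affinity IgG receptor, had 12.8 to 404 TPM in Cd74-high and 1.27 to 16.7 TPM in Cd74-low monocytes (log2 difference 2.59 ± 0.65, limma adjusted p = 0.0181), with its top value in clone 15. Clec4n differed by 1.97 ± 0.48 and Clec4d by 1.89 ± 0.40. Of 10 inflammatory genes 2 were higher (8.22% of all genes): the chemokine gene Ccl2 had 27.7 to 358 TPM in Cd74-high and 1.78 to 56.5 TPM in Cd74-low monocytes (2.79 ± 0.61), and Ccl4 differed by 1.57 ± 0.42 but lost its call without clone 1, 5, 9 or 24 (adjusted p of up to 0.0603). Tnf (0.48) and Il1b (0.52) did not pass.

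Genes of other lineages were among the largest differences. Of 9 mast cell and basophil genes 2 were higher (8.22% of all genes), the proteases Cma1 and Tpsb2. Cma1 had 282, 160, 53.1 and 52.0 TPM in Cd74-high clones 5, 11, 1 and 13 against 0.842 to 3.86 TPM in the Cd74-low clones of that set. In clones 15 to 26 it had 2.70 to 92.5 TPM in Cd74-high and 0 to 36.3 TPM in Cd74-low monocytes. The log2 difference was 5.28 in the first set and 1.28 in the second, and 3.28 ± 0.87 over both (limma, adjusted p = 0.0244). Tpsb2 had the same pattern (5.25 and 1.15), and both lost their calls without clone 3, 5 or 9 (adjusted p of up to 0.0573). Of 3 measured erythroid and megakaryocyte genes 2 were higher, against the same 8.22%. Vwf had 8.03 to 41.4 TPM in Cd74-high and 0.189 to 4.87 TPM in Cd74-low monocytes (2.57 ± 0.26), and Pf4, a platelet chemokine, differed by 2.77 ± 0.56. The haemoglobin gene Hba-a1 was listed at 0 in all 16 libraries. Of the lymphoid list 1 gene was measured, Il7r, and it was higher (1.88 ± 0.40), where 8.22% of all genes were. Of 3 plasmacytoid dendritic cell genes 1 was higher (8.22% of all genes), Bst2 (2.66 ± 0.53), an interferon-induced gene. None of 4 eosinophil or 2 stromal and endothelial genes passed, where 10.2% of all genes did. Summed over the mast cell list the level was 25.1 to 1065 TPM in Cd74-high and 3.78 to 162 TPM in Cd74-low monocytes. The part of these lineages in the other differences was not tested.

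**Figure D4:**
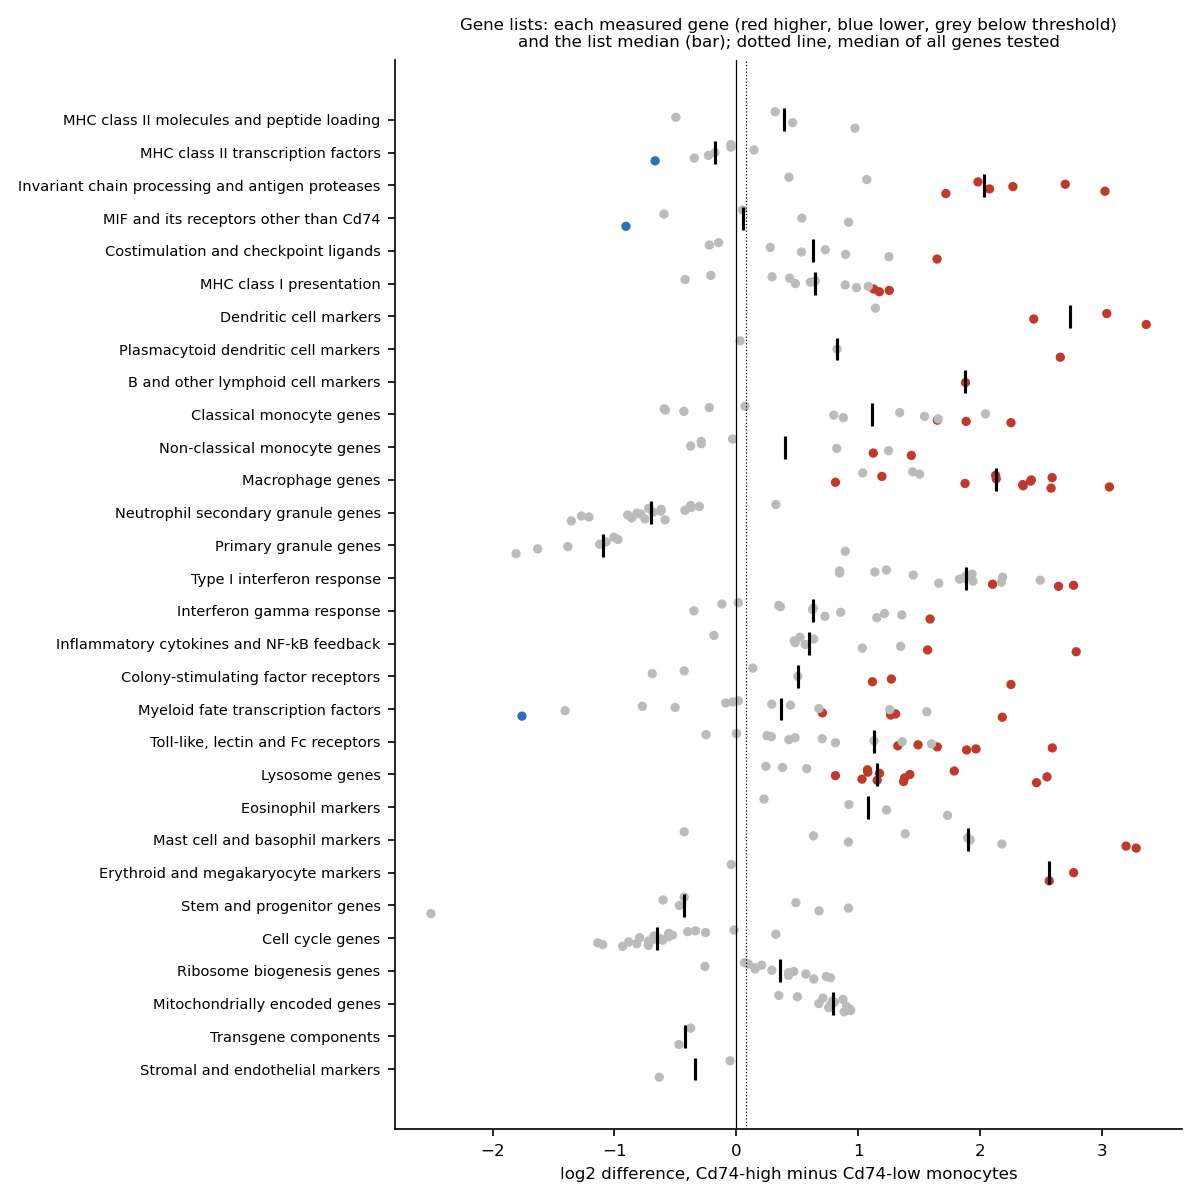
Log2 difference between Cd74-high and Cd74-low monocytes (x) of every measured gene of 30 lists, red for higher, blue for lower and grey for below the threshold, with the median of each list as a bar. Proteases, lysosome and macrophage genes lie to the right with 6 of 8, 12 of 15 and 12 of 15 higher, while class II genes, with 0 of 4, scatter about 0.

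Called genes with a class mean of at least 10 TPM and the same direction in both sets were ranked by size. Gene models named Gm, Rik or beginning with a digit were not ranked. The 10 largest increases were in Trav13-4-dv7 (log2 difference 3.39), Clec10a, Lgals3bp (3.35), Cma1, Klk1b11 (3.22), Tpsb2, Cbr2 (3.19), Anpep (3.18), Mrc1 and Ecm1 (3.05). Ecm1, a secreted matrix protein, had 28.2 to 283 TPM in Cd74-high and 1.45 to 23.6 TPM in Cd74-low monocytes without overlap. Cbr2, a carbonyl reductase, had 9.92 to 132 TPM in the Cd74-high class and 0.448 to 8.998 TPM in the Cd74-low class, also separate. The 10 largest decreases among the ranked genes were in Nhej1 (-2.26), a DNA end-joining factor, Ankrd28 (-1.84), Gfi1, Hemk1 (-1.75), Lin28a (-1.74), Serpinb1a (-1.71), Hip1r (-1.69), Kif14 (-1.65), Cldn15 (-1.65) and Trem3 (-1.62). Ankrd28, a regulatory subunit of a phosphatase, had 1.93 to 13.3 TPM in Cd74-high and 19.5 to 33.1 TPM in Cd74-low monocytes with no overlap (limma, adjusted p = 3.44e-04). Serpinb1a, an inhibitor of neutrophil proteases, had 48.1 to 577 TPM in the Cd74-high class and 326 to 1154 TPM in the Cd74-low class. Hemk1 lost its call on leaving out any of 9 clones and Lin28a on leaving out any of 13, with adjusted p-values of up to 0.0692 and 0.0926. All 10 decreases were larger in size in clones 15 to 26 than in clones 1 to 13. Nhej1 differed by -3.44 there against -1.08, and Cldn15 by -2.54 against -0.75. None of them passed the test of the difference between sets given below.

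Over the 22 ranked monocyte libraries, 12 and 10 a set, the genes whose log2 level tracked Cd74 most closely after centring each set were Akr1a1 (r = 0.919, Spearman rho = 0.898), P2rx4 (0.919, 0.938), Uap1l1 (0.917, 0.946), Blvrb (0.908, 0.922) and Glmp (0.908, 0.907), out of 5122 genes compared. These libraries share clones and total scaling with the classes, so the coefficients are descriptions. Without clones 5 and 15, the farthest from the median of Cd74, r was 0.899, 0.908, 0.906, 0.918 and 0.891 in the same order of genes. Akr1a1, an aldehyde reductase, ran between 69.0 and 1096 TPM. Glmp encodes a lysosomal membrane protein and P2rx4 an ATP-gated channel of lysosomes and the cell surface.

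The sets of clones were then taken apart. Clones 1 to 13 alone (4 against 4) gave 1968 genes past the threshold, 1535 higher and 433 lower. Clones 15 to 26 alone gave 1, the gene model Gm21769 (log2 difference -6.04), with 1258 at an unadjusted p under 0.05. The calls of the first set mostly had the same direction in the second, whose libraries the first did not use: of 1484 higher calls tested there, 1229 were above 0 (82.8%, against 48.5% of all genes; median 0.51), and of 414 lower calls 322 were below 0 (77.8%, against 51.5%; median -0.39). Lgmn differed by 3.01 in the first set and by 3.04 in the second, Cd68 by 2.59 and 2.57, Psap by 2.65 and 2.27, and Ctsd by 1.80 and 1.64. A test of the difference between sets called 1 of 10799 genes (0.00926%), the glutathione transferase gene Gsta3 (3.14 ± 0.36, limma adjusted p = 0.00299), with 1188 at an unadjusted p under 0.05. That count was 1 to 8 on leaving out single clones, with 8 without clone 15, 6 without clone 17, 4 without clone 11 or 13, and 2 without clone 1, 2, 5, 20 or 23.

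The libraries that entered neither class give a further view. In the first set, the mean of the 4 middle clones lay between the class means for 98.0% of the 888 higher genes, against 68.5% of all genes. In the second, with 2 middle clones, it did so for 48.4%, against 30.8% of all genes. The higher genes were chosen for a gap between these same class means. A wide gap by itself raises the share of middle means inside it, so these shares describe and do not support. The left-out monocytes of clones 8 and 26, rich in Cd74, behaved otherwise: clone 8 lay nearer the Cd74-high than the Cd74-low mean of its set in 30.5% of the higher genes (37.9% of all genes), and clone 26 in 46.8% (63.4% of all). For the 216 lower genes the shares were 87.0% and 92.6%. Clone 8 had 429 TPM of Ctsb and 486 TPM of Ctsd, inside the range of the Cd74-low class, but 141 TPM of Lgmn and 31.7 TPM of Mrc1, inside that of the Cd74-high class. Clone 26 had 691 TPM of Cd68 but 1.33 TPM of Clec10a and 0.166 TPM of Mrc1. Both libraries also stood apart in composition: mitochondrial transcripts took 11.1% of TPM in clone 8, against at most 6.83% in the rest of its set, and 25.1% in clone 26, the most of any monocyte library. Clone 8 had 9461 genes at 1 TPM or more, the fewest of its set. The part of this in their values was not tested. With both kept in the ranking, 909 genes passed, 655 higher and 254 lower.

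In the progenitors of the same clones, limma called 0 of 10747 genes between progenitors of Cd74-high and Cd74-low clones (0%), and 103 had an unadjusted p under 0.05. In clones 1 to 13 alone 5 passed. Of the 888 genes higher in Cd74-high monocytes 701 were measured in progenitors, where their median log2 difference was 0.01, against -0.05 for all genes. Without clone 24 the median of all genes was 0.13. The progenitor of that Cd74-high clone had 8240 genes at 1 TPM or more, the fewest of the progenitors, and the highest mitochondrial share (16.7%). The progenitor of the Cd74-low clone 21 had the most genes listed at 0 (23247). The same 701 had a median of 1.11 in monocytes, which chose them. Ctsd had 138 to 344 TPM in progenitors of Cd74-high clones and 140 to 217 TPM in progenitors of Cd74-low clones. Psap had 41.2 to 239 TPM in progenitors of Cd74-high clones and 33.2 to 115 TPM in progenitors of Cd74-low clones. In progenitors Ctss differed by 1.30, Blvrb by 1.01 and Lgmn by 0.94, none past the threshold. Some lists leaned in progenitors as they did in monocytes. The median there was 0.75 for 10 macrophage genes and -1.31 for 14 secondary granule genes. It was 0.28 for proteases, 0.13 for lysosome genes, 0.002 for primary granule genes and -0.16 for type I interferon genes. No gene of these lists was called in progenitors.

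A direct test of whether the difference between classes in monocytes departed from that in progenitors, with clone as a block, called 324 of 11123 genes (2.91%), 312 with a positive and 12 with a negative monocyte minus progenitor difference. Ankrd28 is among the negative ones, at -1.84 in monocytes and -0.05 in progenitors. Of these, 310 were also called in monocytes, so the count is not independent of the classes. Lgmn (monocyte minus progenitor difference 2.08 ± 0.55, limma adjusted p = 0.0480), Ctsd (1.57 ± 0.25, 0.00316), Psap (2.10 ± 0.36, 0.00474), Ctsl (1.89 ± 0.38, 0.0115) and Clec10a (2.82 ± 0.53, 0.00766) passed, while Ctss (1.39 ± 0.64, 0.326) and Ctsb (1.44 ± 0.49, 0.143) did not. The count was 180 without clone 3, 155 without clone 5 and 170 without clone 9. Without clone 24 it was 413, of which 302 were positive and 111 negative.

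**Figure D5:**
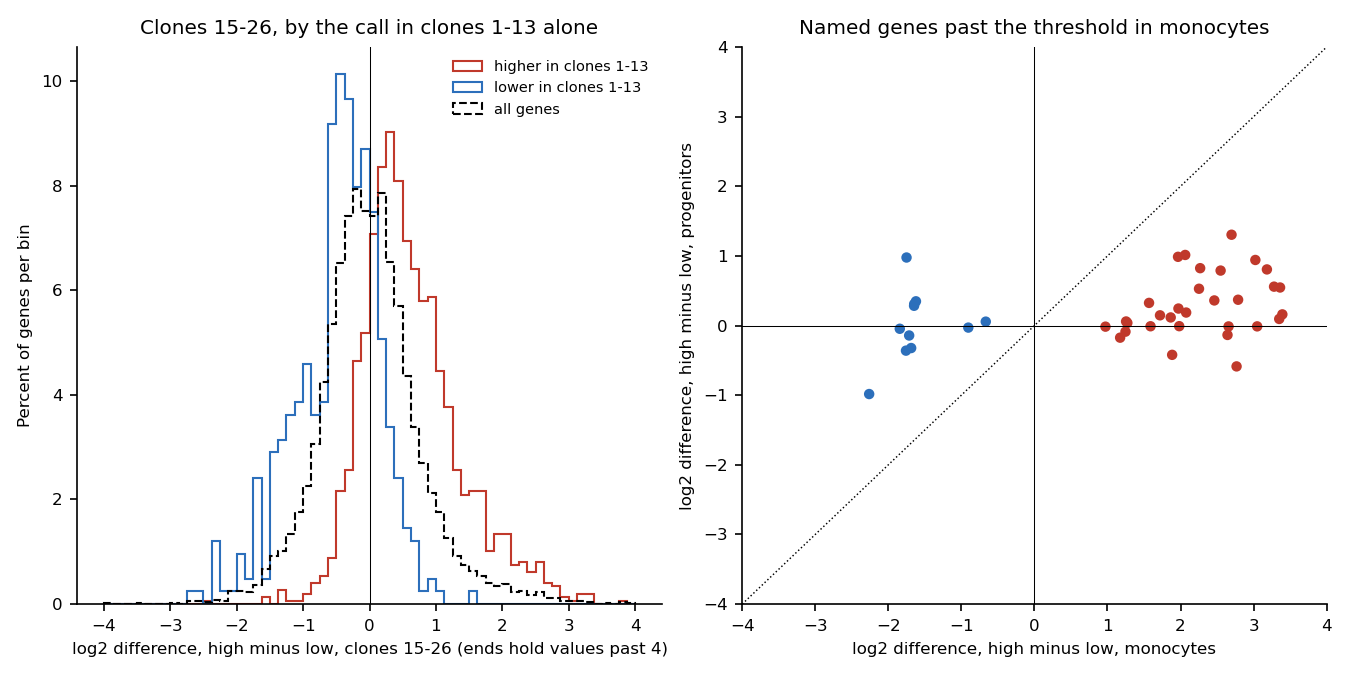
Left, log2 differences between Cd74-high and Cd74-low monocytes in clones 15 to 26 (x) as the percent of genes per bin (y), for genes higher (red) or lower (blue) in clones 1 to 13 alone and for all genes (dashed). Right, the difference in monocytes (x) against that in progenitors (y) of 42 named genes past the threshold in monocytes, dotted line at equal values. The genes higher in the first set shift right of 0 (82.8% above it) and those lower shift left, and the progenitor differences on the right lie between -0.98 and 1.30.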

How the data were processed

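RNA sequencing of 48 ER-Hoxb8 libraries, 24 clones in 2 states, was used. The state was taken from the source name in the labels and the clone from the title. The authors deposited TPM, a length-corrected share of the library, per gene symbol in 1 table of 34643 rows. Per the submitters' processing notes, Salmon was used with the build mm10. No source used here states the annotation release or how transcripts became genes. Depth cannot be read from TPM, so values carry no counting error, and a listed 0 may be an estimate that failed. All values share the library total, so an abundant class of transcripts pushes the others down. After 26 entries named by a calendar date were left out, columns summed to between 982723 and 999054. The highest correlation between monocyte libraries was 0.984, and no pair was taken as a duplicate.

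Members and gene lists were chosen with earlier results of these data known. The 30 lists come from general knowledge, and the motifs were chosen after values were seen. Genes with a mean of at least 1 TPM were tested with limma 3.58.1 (R 4.3.3) on log2(TPM + 1) with a mean-variance trend, two-sided, with Benjamini-Hochberg adjustment over all genes tested and a threshold of 0.05. Fold changes on this scale understate the change of low genes. Errors after ± are SE for log2 differences and SD for levels. Cd74 was left out of the monocyte test. Set of clones was a covariate, since the rule ranks within sets. The comparison of states had clone as a block, because the design text pairs states by clone. As a check, deviations of a clone's 2 libraries correlated above 0.1 in 9 of 16 clones, from -0.03 to 0.36, so the pairing rests on that text. Single values were compared by exact permutation of classes within sets. The code was tested on simulated data. Named genes are class II, protease, MIF and costimulation genes that were measured, the 10 largest called differences each way with a class mean of at least 10 TPM, the largest per list and the 5 most alike. The 10 largest each way also needed the same direction in both sets. Gene models named Gm, Rik or beginning with a digit were left out of that ranking and of the 5 most alike. Others were named after their values were seen, to describe the lists, and their values come from the same fit. Some genes on the lists are counted but not reported here by name. Coordinates of promoters are from RefSeq (GRCm38.p6). Other tools were pandas 2.3.3, numpy 2.4.6, scipy 1.17.1 and matplotlib 3.10.9 in Python 3.11.15. Nothing in the labels says whether clones come from separate animals, so p-values measure the spread between clones.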

Additional observations from a re-analysis of the deposited data

Results flagged for a closer look

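A library far from the other 7 of its class, by Dixon's ratio of the gap to the range on log2(TPM + 1), was found in 22 of 178 gene and class combinations, where chance gives about 1 in 20. In Cd74-high monocytes these were H2-DMa in clone 23 (44.2 TPM), H2-Oa in clone 18 (5.09 TPM), Cd40 in clone 15 (11.8 TPM), Cd274 in clone 15 (54.8 TPM), Cd83 in clone 15 (11.8 TPM), Psmb10 in clone 15 (283 TPM), Oasl2 in clone 15 (376 TPM), Irgm1 in clone 15 (147 TPM), Fcgr1 in clone 15 (404 TPM), Clec4n in clone 1 (1275 TPM), Bub1 in clone 15 (1.13 TPM), P2rx4 in clone 15 (249 TPM). In Cd74-low monocytes they were H2-Oa in clone 20 (0.609 TPM), Rfxap in clone 17 (64.9 TPM), Ctsl in clone 9 (14.1 TPM), Ctsd in clone 9 (294 TPM), Cd40 in clone 17 (1.37 TPM), H2-D1 in clone 9 (246 TPM), Fcnb in clone 22 (13.8 TPM), Psap in clone 9 (198 TPM), Prg2 in clone 20 (0.249 TPM), P2rx4 in clone 9 (6.47 TPM). Clone 15 gave 9 of the 22 and clone 9 gave 5.

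For 30 named genes the difference between the Cd74-high and Cd74-low classes in monocytes was not equal to that in progenitors of the same clones (limma interaction, adjusted p under 0.05). Many named genes were chosen by their monocyte values, so a larger difference in monocytes than in progenitors is partly built in. The 30 therefore describe and do not support. The monocyte minus progenitor difference was positive for Pf4 (3.35), Klk1b11 (3.28), Lgals3bp (3.26), Tpsb2 (3.24), Cbr2 (3.09), Ecm1 (3.06), Clec10a (2.82), Rtp4 (2.78), Bst2 (2.67), Oasl2 (2.67), Vwf (2.63), Mrc1 (2.56), Fn1 (2.31), Maf (2.15), Psap (2.10), Lgmn (2.08), Ctsz (1.99), Ctsl (1.89), P2rx4 (1.75), Akr1a1 (1.73), Irgm1 (1.60), Cd83 (1.59), Ctsd (1.57), H2-D1 (1.35), Glmp (1.33), Uap1l1 (0.99). It was negative for Ankrd28 (-1.80), Cldn15 (-1.95), Trem3 (-1.97), Hemk1 (-2.73). No named gene differed in this way between clones 1 to 13 and clones 15 to 26.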

How the results depend on the processing

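The count of 1104 genes between Cd74-high and Cd74-low monocytes was 767 to 1486 under 11 other settings, which changed the pseudocount, the filter, the scaling, the set covariate, the trend, the number of clones picked or the left-out clones. It was 1968 in clones 1 to 13 alone, 1 in clones 15 to 26 alone, 1663 (1424 higher, 239 lower) with Cd74 as a number over 22 clones and 2099 with the mitochondrial share as covariate. Picking 5 clones at each end gave 1067 genes, 1022 higher and 45 lower. Added after seeing the data, it was 1700 without clones 20 and 21, 2505 without clones 17 and 22, and 1730 with the secondary granule level as covariate. Leaving out each clone gave 707 to 1343. In progenitors the count was 5 in clones 1 to 13 alone and 0 under the other settings run. The difference between sets was called in 3 genes with a pseudocount of 5 and in 1 to 8 on leaving out clones. The difference between states was called in 324 genes with clone as the replicate block, 229 with no replicate block, 367 with the block as a random effect, 403 with a pseudocount of 5 and 155 to 413 on leaving out clones (302 positive and 111 negative at 413). Cd74 in progenitors kept its direction and missed the threshold under every setting run. The causes of these shifts were not tested.

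Of 89 named genes 57 passed the threshold. These lost it in 182 of 1936 comparisons with another setting, 57 of them in clones 15 to 26 alone, and changed sign in 0. Of the 32 others, 13 passed in at least 1 setting. Likewise 13, with Ctsh in both, changed sign in a setting where they did not pass either. The log2 difference under such settings is given next. After rescaling without mitochondrial, Gm and pseudogene entries the log2 difference was 0.014 for Rfxap. With the median gene equal in every library it was -0.059 for Cd44. In clones 1 to 13 alone it was -0.10 for H2-DMb1, 0.12 for Rfx5, 0.074 for Rfxap, 0.020 for Rfxank, 0.32 for Nfyc, 0.029 for Creb1, 0.40 for Cxcr2, 0.11 for Vsir. In clones 15 to 26 alone it was -0.12 for Nfya, -0.62 for Ctsh, -0.30 for Cd44. With 3 highest and 3 lowest it was 0.12 for Rfx5, 0.034 for Rfxap, 0.021 for Icosl. With 5 highest and 5 lowest it was 0.033 for Rfx5, 0.074 for Nfyc, 0.024 for Icosl, 0.12 for Vsir. Per log2 unit of Cd74 over 22 clones it was 0.037 for Rfx5, 0.014 for Rfxap, 0.017 for Nfyc, 0.010 for Vsir. With clones 8 and 26 kept it was -0.0037 for Cd44. With the mitochondrial share as covariate it was 0.070 for Rfx5, 0.075 for Nfyc, 0.0046 for Creb1, 0.79 for Cxcr2, 0.14 for Icosl, 0.37 for Vsir, 0.099 for Col1a1. Without clones 20 and 21 it was 0.026 for Rfxank, 0.012 for Nfyc, 0.57 for Cxcr2, 0.085 for Icosl, 0.20 for Vsir. Without clones 17 and 22 it was 0.11 for Rfx5, 0.098 for Rfxap, -0.0016 for Ctsh, -0.11 for Cd44. With the granule level as covariate it was 0.0028 for Cxcr2, 0.024 for Icosl, 0.036 for Vsir. On leaving out clones it ran over -0.061 to 0.18 for Cd44, -0.020 to 0.91 for Ctsh, -0.17 to 0.050 for Rfx5, -0.12 to 0.085 for Rfxap. The lack of counts and the 8 clones a class limit precision.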
